A study of Rattus norvegicus with 12 samples.

Results

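The 10 genes described here are H19, Igf2, Igf1, the receptors Igf1r and Igf2r, and the binding proteins Igfbp2 to Igfbp6. They were taken as every probe set, the array's unit of measurement, whose single gene symbol was one of these names. They make up 10 of the 10606 genes measured, and 23 of the 31042 probe sets that are no manufacturer's controls. Each gene was represented by its probe set of highest mean, and 20 of the 23 probe sets passed the filter on low values. The 3 that did not are further probe sets of Igf2. The genes were chosen by measured values, because H19, Igf2 and Igfbp3 had been seen to differ between shunt and sham in the left atrium. The values of that comparison are therefore given for these genes as a description, without a test.

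Expression had been measured on 12 one-colour Affymetrix rat arrays, in male Sprague-Dawley rats of 225 to 275 g whose age is not stated. Left atrial appendage and left ventricular free wall were collected 28 days after a sham operation or after an aorto-caval shunt, an operation that lets arterial blood pass straight into the vena cava and so loads the heart with volume. Each of the 4 groups (left atrium sham, left atrium shunt, left ventricle sham, left ventricle shunt) held 3 arrays, and each array held total RNA of a pool of 2 tissues, so that single animals cannot be followed. No transgene or drug is named for any group.

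H19 is a spliced RNA that is not translated, and it is transcribed from the maternal chromosome next to Igf2, which is transcribed mainly from the paternal one. Both genes are abundant in the fetus and fall after birth in most tissues, the heart among them. Igf2 and Igf1 are secreted growth factors that signal through the Igf1r tyrosine kinase, whereas Igf2r binds Igf2 at the cell surface and carries it to lysosomes. The binding proteins hold the growth factors in the circulation and in the matrix around cells, and either limit or prolong their action.

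Both imprinted genes also carry a microRNA hairpin, and its mature products are shown because they lie within the genes measured. The sequences are RefSeq's, on the minus strand of chromosome 1 in rat assembly GRCr8, and capitals mark the seed, bases 2 to 8.
rno-miR-675-5p, in H19, chr1:207161800-207161821: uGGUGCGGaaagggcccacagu
rno-miR-675-3p, in H19, chr1:207161766-207161786: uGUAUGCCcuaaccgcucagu
rno-miR-483-5p, in Igf2, chr1:207247903-207247924: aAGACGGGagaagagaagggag
rno-miR-483-3p, in Igf2, chr1:207247865-207247886: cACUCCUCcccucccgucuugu
None of the 4 shares its seed with another of the 724 mature rat microRNAs in the table. The arrays measured the host transcripts, not these products.

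Igf2 and Igfbp3 had like patterns across the 12 arrays, as described further on, and their promoters are shown for that reason. Each runs from 250 bases before to 50 bases after a RefSeq start site in GRCr8, read 5′ to 3′ on the minus strand, and capitals mark a GC box (GGGCGG or its reverse CCGCCC).
Igf2, upstream start, chr1:207253931-207254230: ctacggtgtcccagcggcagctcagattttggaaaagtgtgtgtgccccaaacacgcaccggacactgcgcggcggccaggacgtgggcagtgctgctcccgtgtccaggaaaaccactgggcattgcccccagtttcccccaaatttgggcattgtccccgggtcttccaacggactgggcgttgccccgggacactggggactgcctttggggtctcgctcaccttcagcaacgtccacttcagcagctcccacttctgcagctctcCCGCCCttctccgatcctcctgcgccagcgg
Igf2, downstream start, chr1:207250426-207250725: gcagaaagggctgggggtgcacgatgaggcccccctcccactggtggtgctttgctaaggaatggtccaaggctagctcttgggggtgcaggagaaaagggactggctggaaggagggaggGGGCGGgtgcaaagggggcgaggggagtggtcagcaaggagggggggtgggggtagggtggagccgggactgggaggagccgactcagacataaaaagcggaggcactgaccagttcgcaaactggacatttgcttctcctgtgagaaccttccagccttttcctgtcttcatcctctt
Igfbp3, chr14:86277895-86278194: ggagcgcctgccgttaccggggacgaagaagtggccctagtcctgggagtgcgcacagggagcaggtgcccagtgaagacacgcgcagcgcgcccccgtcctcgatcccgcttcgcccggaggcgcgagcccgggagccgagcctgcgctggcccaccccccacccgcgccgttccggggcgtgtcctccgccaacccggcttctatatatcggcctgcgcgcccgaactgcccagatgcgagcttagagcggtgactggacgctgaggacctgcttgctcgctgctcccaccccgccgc
Each Igf2 promoter held 1 GC box, and the Igfbp3 promoter held none in this window. The number of CG pairs was 36 in the Igfbp3 promoter, a number that 5.43% of 33469 promoters reach, against 19 and 7 in those of Igf2 and a median of 7 over all promoters. Promoters were found for 9 of the 10 genes, 10 promoters in all. A GC box was present in 5 of these 10, against 33.1% of all promoters, and a TATA box (TATAAA or TTTATA) in 1, that of Igfbp4, against 14.2%. These matches describe the letters in the window and are not measured binding sites.

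The labelled tissues carried their markers. The mean over 4 atrial myocyte markers (Nppa, Myl7, Sln and Myl4) was 13.55 to 13.67 on the atrial arrays and 6.38 to 7.72 on the ventricular arrays, on the log2 scale of all values here. The mean over 3 ventricular myocyte markers (Myl2, Myl3 and Irx4) was 11.43 to 11.56 on the ventricular arrays, 4.80 to 5.38 on the atrial sham arrays and 5.50 to 5.90 on the atrial shunt arrays. The gap between the 3′ and 5′ control probe sets of hexokinase, a sign of RNA quality, was 0.80 to 1.23 on all arrays but the third atrial shunt array, where it was 1.44. That array stood apart from the others of its group, and it is named where it moved a value.

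H19 was highest in the atrium of sham rats, and its 4 groups of arrays did not overlap. Its level was 9.31, 9.57 and 9.28 in left atrium sham, and 6.91, 7.71 and 7.44 in left atrium shunt. It was 6.57, 6.68 and 6.57 in left ventricle sham, and 5.90, 6.42 and 5.80 in left ventricle shunt. The order was therefore atrium sham, atrium shunt, ventricle sham, ventricle shunt, and each neighbouring pair was separated by a gap. The lowest atrial sham array stood 1.58 above the highest atrial shunt array. In bulk tissue, fewer cells of a type and less RNA per cell cannot be told apart, here and in every result that follows.

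The atrial shunt minus sham difference of H19 was -2.04 (SE 0.19, n = 3 per group), a level 4.10-fold lower. On the single shunt arrays it was -2.48, -1.68 and -1.95 against the sham mean. It ranged from -2.21 to -1.81 over 23 alternative settings. In the ventricle the difference was -0.57 (SE 0.19, 95% interval -0.99 to -0.14, limma adjusted p = 0.217), with all 3 shunt arrays below all 3 sham arrays. This did not pass the threshold of 0.05 in any of the 23 alternatives, whose adjusted p ran from 0.101 to 0.451. The shunt effect in atrium minus that in ventricle was -1.47 (SE 0.27), which holds the atrial difference and is a description. The ventricle of the second shunt pool had the smallest difference, -0.19, against -0.70 and -0.81 in the other two.

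Against the ventricle, atrial H19 was 6.87-fold higher in sham rats, a log2 difference of 2.78 (SE 0.19), and 2.48-fold higher in shunt rats, a difference of 1.31. The arrays did not overlap in either case. These comparisons use the same atrial arrays as the comparison by which H19, Igf2 and Igfbp3 were chosen, so no p is given for these 3 genes. The current gene table places an uncharacterised long non-coding gene over H19, and their signals may not be told apart on these arrays.

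Igf2 was also highest in the atrium of sham rats, but lowest in the atrium of shunt rats. Its level was 7.81, 7.91 and 7.95 in left atrium sham, and 6.83, 7.01 and 7.21 in left atrium shunt. It was 7.46, 7.43 and 7.45 in left ventricle sham, and 7.15, 7.39 and 7.15 in left ventricle shunt. Atrium sham lay above ventricle sham, which lay above ventricle shunt, with no overlap, whereas ventricle shunt and atrium shunt overlapped. The atrial shunt minus sham difference was -0.87 (SE 0.10), a level 1.83-fold lower, with a gap of 0.60 between the groups.

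The ventricular difference of Igf2 was -0.21 (SE 0.10, 95% interval -0.43 to -0.0012, limma adjusted p = 0.338). The arrays did not overlap, but the highest shunt array (7.39) lay 0.03 below the lowest sham array (7.43). Igf2 was 1.36-fold higher in atrium than in ventricle of sham rats (log2 difference 0.44), and in shunt rats the difference was -0.22 with overlapping arrays. The other 3 probe sets of Igf2 lay between 3.35 and 4.13 on all arrays, with means below the filter level of 4.01, so the values of Igf2 rest on 1 probe set.

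Igfbp3, which carries most of the circulating growth factor and also occurs in tissue, had a pattern like that of Igf2. Its level was 7.12, 7.40 and 7.36 in left atrium sham, and 5.92, 6.17 and 6.11 in left atrium shunt. It was 6.52, 6.68 and 7.08 in left ventricle sham, and 6.28, 6.11 and 6.12 in left ventricle shunt. Atrium sham lay above ventricle sham, which lay above ventricle shunt, and ventricle shunt overlapped with atrium shunt. The atrial shunt minus sham difference was -1.23 (SE 0.13), a level 2.34-fold lower.

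In the ventricle, Igfbp3 differed by -0.59 (SE 0.13, 95% interval -0.88 to -0.30, limma adjusted p = 0.0949), a level 1.51-fold lower that did not pass the threshold. The adjusted p ran from 0.0577 to 0.241 over 23 alternatives. A second probe set of Igfbp3 gave -0.52 in the ventricle and -1.01 in the atrium. Igfbp3 was 1.45-fold higher in atrium than in ventricle of sham rats (log2 difference 0.53), and in shunt rats it differed by -0.10 with overlapping arrays. The second probe set gave 0.61 in sham rats and 0.12 in shunt rats, so the sign in shunt rats differed between the probe sets.

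**Figure D1:**
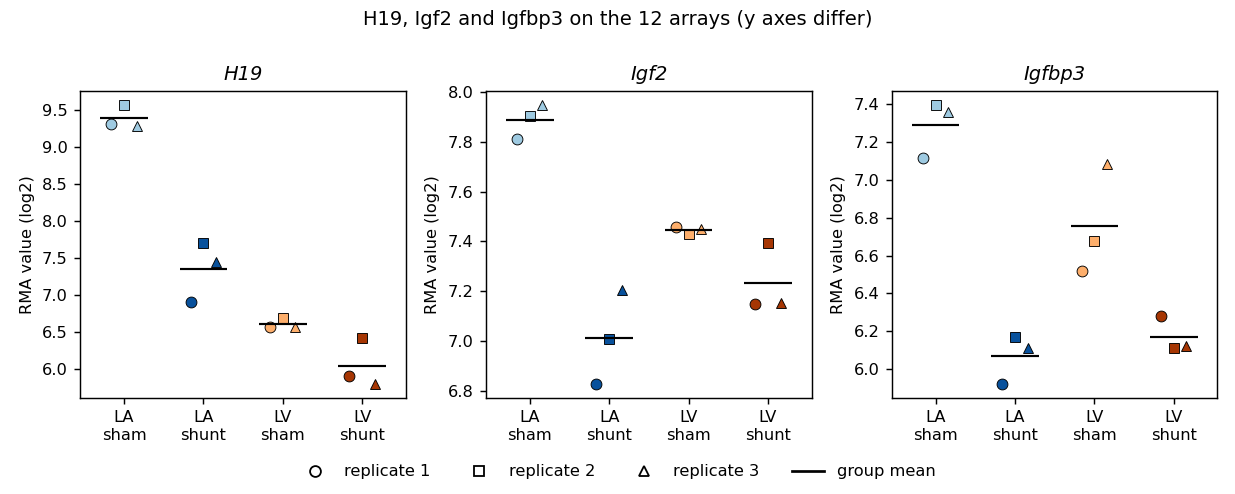
RMA values (log2) of H19, Igf2 and Igfbp3 on the 12 arrays by group (LA left atrium, LV left ventricle), with a marker per replicate and a line at the group mean; the y axes differ between panels. Shunt arrays lie below sham arrays in both chambers for each gene, and the atrial differences of -2.04, -0.87 and -1.23 exceed the ventricular ones of -0.57, -0.21 and -0.59.

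Across the 10 genes, the ventricular comparison of shunt with sham gave no call by limma, against 0.113% of all genes called. At an unadjusted p under 0.05, 3 of the 10 were lower (H19, Igf2 and Igfbp3) and none higher, where 14.6% of all genes passed in either direction. The same 3 genes had shunt arrays wholly below the sham arrays, against 10.5% of all genes. The median difference of the 10 genes was -0.07, beside 5.67e-05 over all genes. No other tool was run, but none of the 10 was called in any alternative setting of limma.

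Marker lists of several cell types also differed between shunt and sham ventricles. The mean over 9 macrophage markers was 6.55 to 6.60 on the sham arrays and 6.75 to 6.96 on the shunt arrays, and the endothelial mean was 8.46 to 8.50 and 8.58 to 8.59. The mesothelial mean was 3.95 to 4.05 and 4.12 to 4.25, and the nerve and Schwann cell mean 3.69 to 3.78 and 3.90 to 3.97. These 4 lists were higher on the shunt arrays without overlap, whereas the fibroblast means overlapped, and no marker of the 5 lists was called. The mesothelial means lay near the filter level of 4.01 and the nerve and Schwann cell means below it. Little can therefore be read from the differences of these lists. Of the nerve and Schwann cell list, 2 of 4 markers were past the filter. Their part in the ventricular values of H19, Igf2 and Igfbp3 was not tested.

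In the atrium, H19, Igf2 and Igfbp3 had been chosen on this comparison, so that their calls follow from the choice and nothing is read from the counts. These 3 genes passed the threshold downward. The share of all genes called was 1.40% in either direction and 0.811% downward. Shunt arrays lay wholly below sham arrays for 6 of the 10, adding Igf1, Igfbp4 and Igfbp5, against 12.5% of all genes. The gap was only 0.05 for Igfbp4 and 0.02 for Igfbp5. On all further probe sets of Igfbp5, and on a further probe set of Igf1, the atrial sham and shunt arrays overlapped. The median difference was -0.22, beside -0.01 over all genes.

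Igf1, the other ligand, is the growth factor through which growth hormone acts on many tissues. Its level was 9.13, 9.17 and 9.09 in left atrium sham, and 8.80, 8.92 and 8.93 in left atrium shunt. It was 8.21, 8.12 and 8.10 in left ventricle sham, and 8.17, 8.30 and 8.14 in left ventricle shunt. Every atrial array lay above every ventricular array. Atrial Igf1 was 1.98-fold higher in sham rats (log2 difference 0.99, SE 0.07, limma adjusted p = 3.05e-07) and 1.60-fold higher in shunt rats (0.68, adjusted p = 7.18e-06).

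Shunt and sham ventricles had overlapping Igf1 arrays, with a difference of 0.06 (95% interval -0.09 to 0.20, limma adjusted p = 0.727). In the atrium the shunt arrays lay below the sham arrays, with a difference of -0.25 (SE 0.07). The 3 probe sets of Igf1 gave atrial differences of -0.46 to -0.25, with overlapping arrays on the probe set at -0.28.

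Both receptors were higher in atrium than in ventricle. Igf1r, the signalling receptor of both ligands, measured 6.59, 6.64 and 6.53 in left atrium sham and 6.89, 6.86 and 6.59 in left atrium shunt. It measured 5.85, 6.11 and 5.75 in left ventricle sham and 5.84, 6.04 and 5.69 in left ventricle shunt. Atrial Igf1r was 1.61-fold higher in sham rats (limma adjusted p = 0.00051) and 1.90-fold higher in shunt rats (adjusted p = 5.67e-05). The ventricular shunt difference was -0.05 (95% interval -0.30 to 0.21, adjusted p = 0.891), and the atrial one was 0.19 (SE 0.12), both with overlapping arrays.

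Igf2r, the receptor that removes Igf2, measured 9.88, 9.75 and 9.78 in left atrium sham and 9.99, 9.94 and 9.82 in left atrium shunt. It measured 9.22, 9.19 and 9.11 in left ventricle sham and 9.12, 9.34 and 9.20 in left ventricle shunt. Atrial arrays lay above ventricular arrays, by 1.55-fold in sham rats (limma adjusted p = 3.97e-05) and 1.62-fold in shunt rats (adjusted p = 1.90e-05). Shunt differed from sham by 0.05 in ventricle (95% interval -0.12 to 0.21, limma adjusted p = 0.823) and by 0.11 in atrium (SE 0.08), and both pairs of groups overlapped. No change of either receptor with the shunt was detected in the ventricle.

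Among the binding proteins other than Igfbp3, Igfbp5 had the largest chamber difference. Igfbp5, the most conserved of the family and one that attaches to matrix, measured 10.30, 10.19 and 10.19 in left atrium sham and 9.96, 10.17 and 9.74 in left atrium shunt. It measured 8.74, 8.63 and 8.67 in left ventricle sham and 8.26, 8.77 and 8.24 in left ventricle shunt. It was 2.92-fold higher in atrium of sham rats (log2 difference 1.55, SE 0.14, limma adjusted p = 3.15e-06) and 2.90-fold higher in shunt rats (1.54, adjusted p = 3.51e-06). Over its 5 probe sets the chamber difference ran from 0.95 to 1.63 in sham rats and from 1.02 to 1.54 in shunt rats. The ventricular shunt difference was -0.26 (95% interval -0.56 to 0.04, limma adjusted p = 0.406), with overlapping arrays. On the further probe sets it was -0.485 and -0.427 with shunt arrays wholly below sham arrays, and -0.431 and -0.219 with overlap. The limma adjusted p of these probe sets ran from 0.321 to 0.646.

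Igfbp6, which prefers Igf2 over Igf1, measured 8.39, 8.07 and 8.21 in left atrium sham and 8.18, 8.70 and 8.30 in left atrium shunt. It measured 7.36, 6.97 and 7.27 in left ventricle sham and 6.92, 7.40 and 7.14 in left ventricle shunt. It was 2.03-fold higher in atrium of sham rats (limma adjusted p = 0.000267) and 2.36-fold higher in shunt rats (adjusted p = 6.38e-05). Sham and shunt arrays overlapped in both chambers, with a difference of -0.05 in ventricle (95% interval -0.39 to 0.30, limma adjusted p = 0.923) and 0.17 in atrium.

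Igfbp2 and Igfbp4 were higher in atrium by smaller amounts. Igfbp2, a binding protein abundant before birth, measured 5.02, 5.70 and 5.33 in left atrium sham and 5.99, 5.69 and 5.32 in left atrium shunt. It measured 4.81, 4.69 and 4.64 in left ventricle sham and 4.72, 4.77 and 4.58 in left ventricle shunt. Its chamber difference was 0.63 in sham rats (SE 0.18, limma adjusted p = 0.0113) and 0.98 in shunt rats (adjusted p = 0.000833). The call in sham rats was lost without the second atrial sham array (difference 0.46, limma adjusted p = 0.0509). The shunt difference was -0.02 in ventricle (95% interval -0.41 to 0.36, limma adjusted p = 0.967) and 0.32 in atrium (SE 0.18), with overlap in both.

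Igfbp4, which limits growth factor action and is cut by the protease Pappa, measured 6.93, 6.74 and 6.70 in left atrium sham and 6.66, 6.53 and 6.62 in left atrium shunt. It measured 6.43, 6.33 and 6.30 in left ventricle sham and 6.08, 6.40 and 6.31 in left ventricle shunt. Its chamber difference was 0.43 in sham rats (limma adjusted p = 0.00206) and 0.34 in shunt rats (adjusted p = 0.00974). The shunt difference was -0.09 in ventricle (95% interval -0.29 to 0.11, limma adjusted p = 0.676), with overlap, and -0.19 in atrium, where the shunt arrays lay below the sham arrays.

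**Figure D2:**
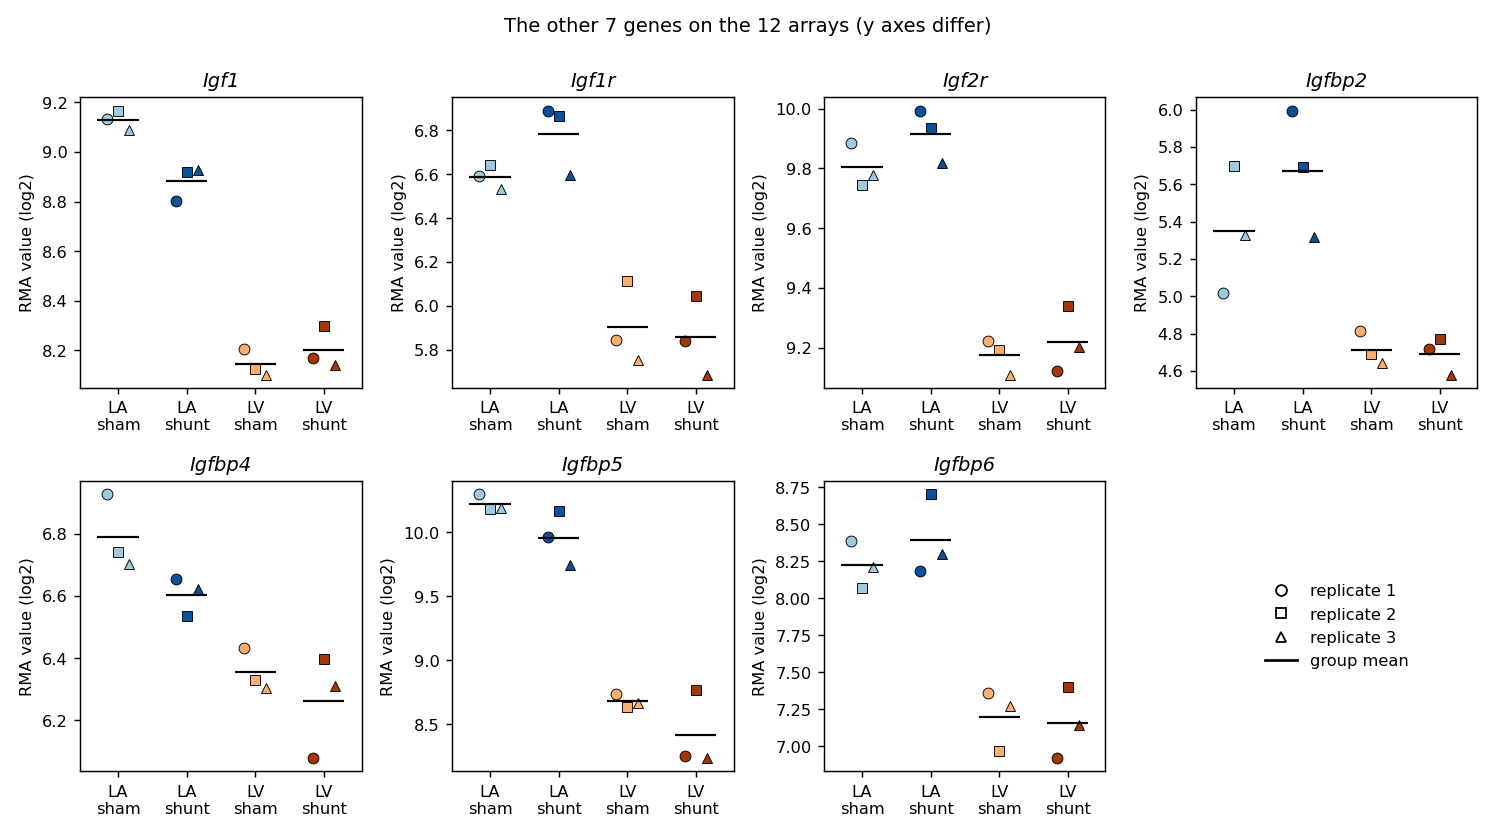
RMA values (log2) of Igf1, Igf1r, Igf2r, Igfbp2, Igfbp4, Igfbp5 and Igfbp6 on the 12 arrays by group, with a marker per replicate and a line at the group mean; the y axes differ between panels. In each panel the atrial arrays lie above the ventricular arrays of the same operation, whereas sham and shunt differ by at most 0.32 within a chamber.

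The atrium was thus higher for all 7 genes that were tested between chambers. In sham rats 7 of 7 passed the threshold upward and none overlapped, against 27.6% of all genes called higher and 34.7% higher without overlap. In shunt rats 7 of 7 passed again, against 24.8% called higher and 28.4% without overlap. The median chamber difference over all 10 genes was 0.66 in sham and 0.81 in shunt rats, beside 0.02 and 0.01 over all genes. The 2 chamber comparisons share no arrays with each other, but each shares arrays with the shunt comparisons.

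Markers of several cell types also differed between the chambers. The mean over 9 fibroblast markers was 9.93 to 9.95 in left atrium sham and 9.27 to 9.36 in left ventricle sham, with 7 of the 9 called higher in atrium. It was 9.72 to 10.1 in left atrium shunt and 9.25 to 9.53 in left ventricle shunt, with 8 of 9 called higher. The mean over 10 markers of mesothelium, the outer lining of the heart, was 5.82 to 5.99 in left atrium sham and 3.95 to 4.05 in left ventricle sham. Of the 9 past the filter, 8 were called higher and Wt1 lower, and Bnc1 lay below the filter. Upk1b, Krt19 and Krt8 passed the filter through their atrial values, with left ventricle sham means of 3.23, 3.28 and 3.53. For these genes a call lower in atrium was hardly possible. The endothelial markers differed by -0.20 in sham rats, with 1 of 8 called higher and 5 lower. The part of these cell types in the chamber differences of the 10 genes was not tested.

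Within the atrium, the mean difference between shunt and sham was 0.01 for the fibroblast list, with none of 9 called, and -0.06 for the mesothelial list, with 1 of 9 called lower, Krt19 (-0.63). The macrophage list differed by 0.11, the smooth muscle and pericyte list by 0.13 and the cardiomyocyte list by -0.06. The ventricular myocyte list differed by 0.51, with 1 of 3 called higher, Myl3 (1.12), and its arrays did not overlap. Myl2 differed by 0.71 without a call. Irx4 went the other way (-0.32), with means of 3.39 on atrial sham and 3.07 on atrial shunt arrays, both below the filter level. The nerve and Schwann cell list, with 2 of 4 past the filter, differed by 0.38, from 3.92 to 4.14 on sham arrays and 4.22 to 4.51 on shunt arrays, with Prph called higher. Of the adipocyte list 1 of 5 was past the filter. The part of these cell types in the atrial differences of H19, Igf2 and Igfbp3 was not tested.

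**Figure D3:**
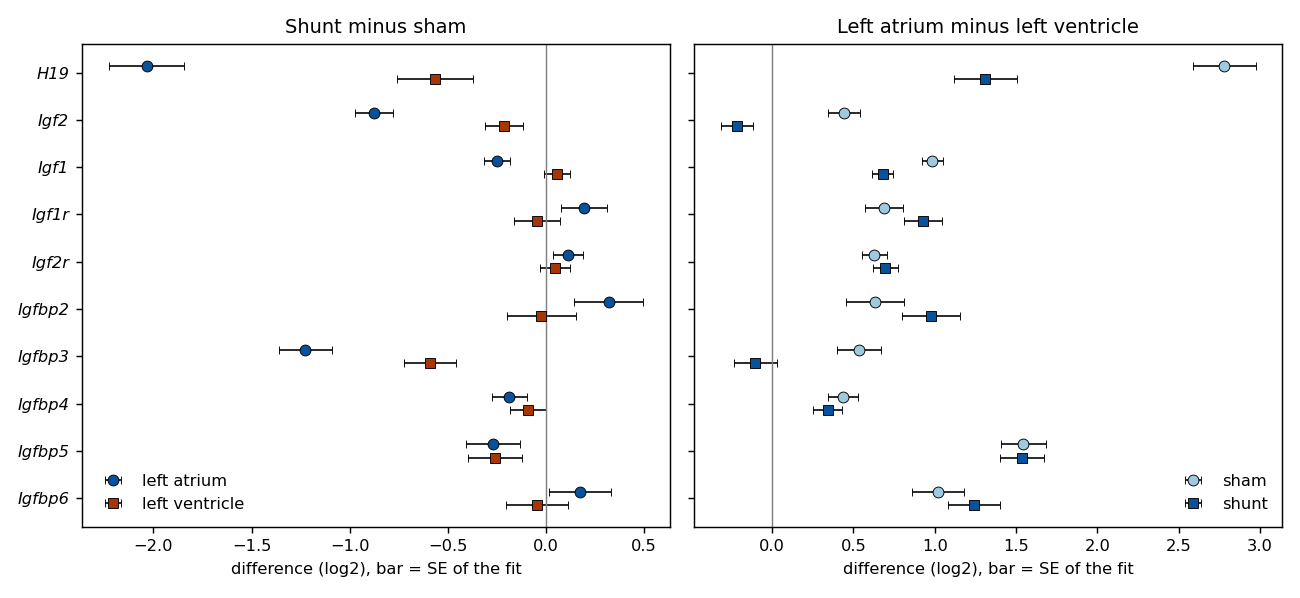
Differences (log2) of the 10 genes with the SE of the fit as bars; the left panel shows shunt minus sham in each chamber, the right panel left atrium minus left ventricle in sham and in shunt rats. The atrial differences of H19, Igf2 and Igfbp3 lie farthest to the left of 0 on the left panel. On the right panel Igf2 and Igfbp3 lie at 0.44 and 0.53 in sham rats and at -0.22 and -0.10 in shunt rats, where the second probe set of Igfbp3, not drawn, gave 0.12.

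Differences between the shunt effects of atrium and ventricle ran from -1.47 for H19 to 0.34 for Igfbp2, with -0.66 for Igf2, -0.64 for Igfbp3 and -0.31 for Igf1. For Igfbp5 the value was -0.01. Across all 18625 probe sets limma called none for this difference, and 6.6% had an unadjusted p under 0.05. The difference of effects holds the atrial comparison, so no p is given for the 10 genes.

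A single array set much of the atrial spread of Igfbp5. On the third atrial shunt array the 5 probe sets of Igfbp5 lay -1.44 to -0.48 from the sham mean, and all 5 were lower there than on the other atrial shunt arrays. On the first and second shunt arrays they lay between -0.34 and 0.18. The third array also had the highest hexokinase difference (1.44) and the lowest fibroblast (9.72), mesothelial (5.51) and macrophage (6.29) list means of its group. Without it the atrial difference of Igfbp5 was -0.16 in place of -0.27. Over all 23 alternatives, among them a hexokinase covariate, that difference ran from -0.41 to -0.16. The part of RNA quality in the values was not tested further. H19, Igf2 and Igfbp3 differed by -2.08, -0.97 and -1.25 without the third array.

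**Figure D4:**
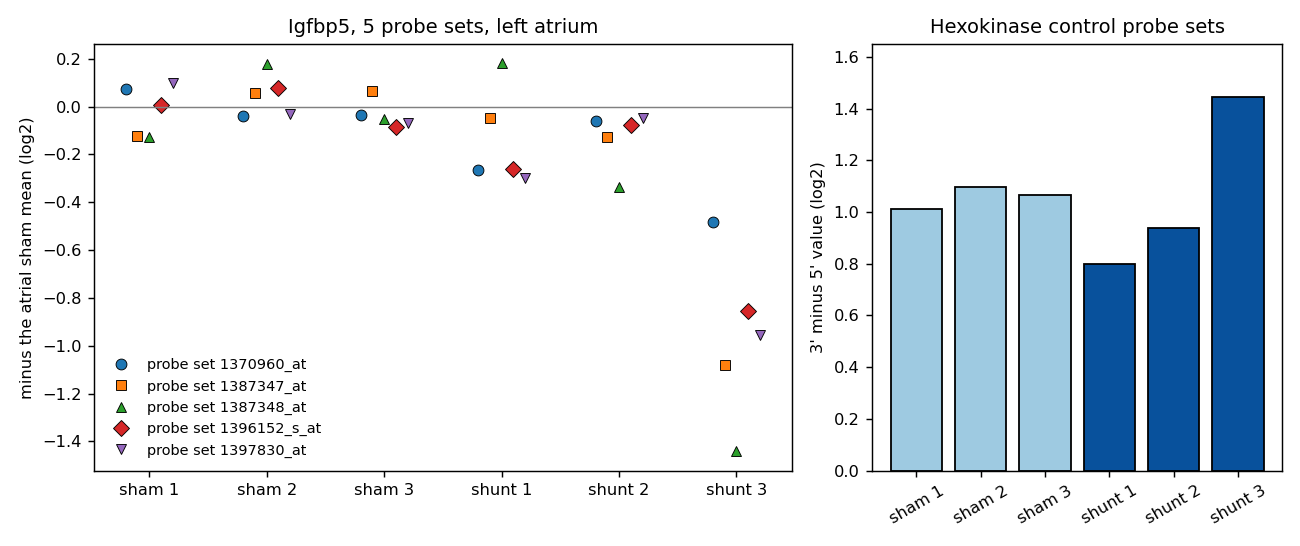
The left panel plots the 5 probe sets of Igfbp5 on the 6 atrial arrays as log2 values minus the atrial sham mean; the right panel shows hexokinase, 3′ minus 5′ control probe set (log2), on the same arrays. All 5 probe sets are lowest on shunt array 3, where the hexokinase difference is highest, at 1.44.

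The second ventricular shunt array stood apart in the other direction. It held the highest value of its group for 9 of the 10 genes, all but Igfbp3, and its fibroblast list mean was 9.53 against 9.25 on each of the others. Without it the ventricular difference was -0.75 for H19 (limma adjusted p = 0.101), -0.30 for Igf2 (adjusted p = 0.173) and -0.43 for Igfbp5 (adjusted p = 0.101). For Igfbp3 it was -0.56 (adjusted p = 0.126). None of these passed the threshold. The hexokinase difference was 0.82 on ventricular shunt array 2, against 1.23 and 1.18 on arrays 1 and 3. On the ventricular sham arrays it was 0.84 to 1.02. Leaving out array 2 therefore kept the shunt arrays of higher hexokinase difference. With that difference as a covariate on all arrays, the ventricular difference was -0.56 for H19 and -0.24 for Igf2. The part of RNA quality in these values was not tested further.

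The genes most like H19 over the 12 arrays, by root mean square difference of values centred on each gene's mean, were Rasd1 (0.39), Gpr15lg (0.39), Epb41l3 (0.48), Slc24a3 (0.51) and Aldh1b1 (0.53). The root mean square of H19's own centred values was 1.29. Rasd1, a Ras-related G protein induced by dexamethasone, had an atrial shunt difference of -1.95 and a sham chamber difference of 2.48, and Gpr15lg had -1.68 and 3.22. Igf2, its chromosomal neighbour, ranked 993 of the genes compared with H19, and H19 ranked 10472 for Igf2. The measure depends on the size of the differences, and Igf2's own root mean square was 0.34. These 2 ranks therefore do not show whether the patterns differ in shape.

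For Igf2 the most alike genes were Stbd1 (0.12), Srpx (0.15), Csdc2 (0.16), Perp (0.18) and Dyrk3 (0.19), where Igf2's own root mean square was 0.34. For Igfbp3 they were Col6a6 (0.22), Srpx (0.24), Igf2 (0.25), Nmrk2 (0.28) and Stbd1 (0.30), with 0.52 for Igfbp3 itself. Igf2 was therefore the third most alike gene to Igfbp3, and Igfbp3 ranked 55 for Igf2. These ranks describe the 12 arrays, among which are the atrial arrays used for the choice.

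The genes next to H19 on the chromosome were compared between shunt and sham as well. Of 20 named protein-coding genes, 10 on each side and Igf2 left aside, 16 had a probe set and 12 were measured. Limma called none of the 12 between shunt and sham in either chamber, against 1.40% of all genes in the atrium and 0.113% in the ventricle. With so small a share called, this does not show whether the neighbours follow H19. At an unadjusted p under 0.05, 2 passed in the atrium (16.7%, against 15.9% of all genes) and none in the ventricle (against 14.6%). The atrial differences ran from -0.34 for Cdkn1c, an imprinted inhibitor of the cell cycle, to 0.43 for Ifitm10 (SE 0.12, adjusted p = 0.111). Mrpl23, the gene next to H19 on one side, differed by -0.10 in the atrium and -0.04 in the ventricle. Ins2 and Th, the nearest beyond Igf2, lay below the filter.

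Of 40 other imprinted genes, 31 were on the array and 22 were measured. Limma called 1 lower in the atrium, Slc22a3, a transporter of organic cations that lies beside Igf2r, and none in the ventricle. The single atrial call is 4.55% of the 22, where 0.811% of all genes were called lower. At an unadjusted p under 0.05, 2 passed in the atrium (9.09%, against 15.9% of all genes). In the ventricle 1 passed (4.55%, against 14.6%). Slc22a3 measured 6.31, 6.32 and 6.40 in left atrium sham and 5.46, 5.38 and 5.98 in left atrium shunt. It fell by 0.74 (SE 0.13, limma adjusted p = 0.0196). The call was lost in 6 of 23 alternatives, whose adjusted p ran from 0.000395 to 0.134. It was 0.134 with only the atrial arrays fitted, 0.0529 to 0.0938 without a single atrial sham array, and 0.0718 and 0.0684 without the first or second atrial shunt array.

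Between chambers, 10 of the 22 other imprinted genes were called higher in atrium and none lower in sham rats, and 9 higher and 1 lower in shunt rats. That is 45.5% called in each case, against 50.2% and 45.6% of all genes, of which 27.6% and 24.8% were called higher. Called higher in both were 8 genes, Nap1l5, Cdkn1c, Nnat, Ndn, Sgce, Mest, Gnas and Plagl1. In the ventricle Nnat (mean 3.78 in sham and 3.69 in shunt rats) and Plagl1 (3.92 and 3.75) lay below the filter level. Nap1l5 lay close to that level in left ventricle sham (mean 4.15). The filter used the mean over all arrays, which Nnat and Plagl1 passed through their atrial values. For these 2 genes a call lower in atrium was therefore hardly possible. Nap1l5, a nucleosome assembly protein relative, measured 8.35, 8.79 and 8.61 in left atrium sham against 3.96 to 4.49 in left ventricle sham, a log2 difference of 4.43 (SE 0.25, adjusted p = 7.69e-08). In shunt rats it differed by 3.26. Cdkn1c was higher by 1.39 (adjusted p = 1.51e-05) and 0.93, Nnat by 1.76 and 1.66, and Ndn by 1.14 and 1.07. The median over the 22 genes was 0.22 in sham and 0.18 in shunt rats, beside 0.02 and 0.01 over all genes.

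Of 57 other genes of the growth factor pathway (receptor substrates, kinases, regulators and further binding proteins), 48 were on the array and 41 were measured. Limma called none between shunt and sham in either chamber, against 1.40% of all genes in the atrium and 0.113% in the ventricle. At an unadjusted p under 0.05, 10 passed in the atrium (2 higher, 8 lower), or 24.4% against 15.9% of all genes, and 4 in the ventricle (1 higher, 3 lower), or 9.76% against 14.6%. The median difference was -0.07 in atrium and -0.05 in ventricle.

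Irs2, the adaptor that links the receptors to phosphoinositide 3-kinase, had shunt arrays below sham arrays in both chambers. It measured 6.47, 5.79 and 5.87 in left atrium sham and 5.39, 5.45 and 5.20 in left atrium shunt, a difference of -0.70 (SE 0.19, limma adjusted p = 0.1). It measured 5.92, 5.76 and 6.21 in left ventricle sham and 5.22, 5.58 and 5.05 in left ventricle shunt, a difference of -0.68 (SE 0.19, adjusted p = 0.146). Neither passed the threshold, although with the hexokinase difference as a covariate the atrial value did (adjusted p = 0.0371).

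Grb2, another adaptor, differed by -0.25 in the atrium (SE 0.07, limma adjusted p = 0.1), and Pik3r3, a regulatory subunit of phosphoinositide 3-kinase, by -0.40 in the ventricle (SE 0.09, adjusted p = 0.104). Grb2 passed with array weights (adjusted p = 0.0312) and with a trended and robust prior (0.0474), and Pik3r3 passed without the third atrial shunt array (0.0469). Pik3r1, another subunit, was chosen after its values were seen, as the gene of the list with the largest difference. It differed by 1.14 in ventricle and 1.04 in atrium with no overlap, at an SE of 0.39 (limma adjusted p = 0.219 and 0.231).

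Between chambers, 11 of the 41 pathway genes were called higher in atrium and 9 lower in sham rats, and 12 and 8 in shunt rats, which is 48.8% in each case against 50.2% and 45.6% of all genes. Higher in both were 8 genes and lower in both 6. Htra1, a secreted protease that can cut binding proteins, was higher by 0.58 in sham rats (limma adjusted p = 0.000121) and 0.66 in shunt rats. Pdpk1, the kinase that activates Akt, was higher by 0.53 and 0.61. Stc1, an inhibitor of the proteases that cut Igfbp4, was lower, with log2 differences of -0.70 (adjusted p = 0.000394) and -1.02. Grb14, an adaptor that inhibits the insulin receptor, was lower, with -0.35 and -0.45.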

How the data were processed

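RNA of the 12 pools was labelled and hybridised by the authors, 1 array per pool. The authors deposited RMA output, per the submitters' processing notes, without its version or the set of arrays normalized together. The deposited values run from 2.05 to 14.29 and are log2. The number of arrays limits the precision.

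Of the 31099 probe sets in the table, 57 were controls. Those with a mean at or above the 40th percentile, 4.01, were tested (18625). Symbols came from the platform annotation, updated by Entrez identifier to RefSeq's rat table (GRCr8): 20826 probe sets had 1 symbol, 20758 of them matched, 436 had several and 9780 were unnamed here. Limma 3.58.1 (R 4.3.3) fitted 1 mean per group over all 12 arrays, with 8 residual degrees of freedom. Two-sided p-values were adjusted by Benjamini-Hochberg over all tested probe sets, with a threshold of 0.05. The spread is that between pools, which the series design calls biological replicates, and is estimated over all groups. The members, lists and tests were chosen with earlier results of these data known. Named were every member, up to 6 genes of smallest p per list and comparison (the 2 smallest where none passed), the measured neighbours of H19, and the 5 genes most like H19, Igf2 and Igfbp3. Some of these are left out of the text. In simulated data for the ventricular comparison, the fit recovered 50% of 50 probe sets changed by 0.5 and 94% of 50 changed by 1, with 13 other calls. Alternatives tried were leaving out each array, averaging probe sets by gene, dropping the filter or setting it at the 60th percentile, cyclic loess, quantile normalization, a robust and trended prior, array weights, a hexokinase covariate, only the 2 groups compared, and the replicate number as a block, within each operation or throughout.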

Additional observations from a re-analysis of the deposited data

How the results depend on the processing

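The 10 genes have 24 tested results, all in the ventricle and the chamber comparisons of 7 genes. Of their 549 alternative values, 548 stayed on the same side of the threshold, and the other is Igfbp2 in sham rats, given above. All 320 alternative values of the 14 called results kept their sign. Of the 229 values of results not called, 10 changed sign, those of Igf1r (3), Igf2r (1), Igfbp2 (3) and Igfbp6 (3) in the ventricle. The 26 described results have 586 alternative values, of which 6 changed sign: 1 of Igfbp3 between the chambers of shunt rats (range -0.17 to 0.01) and 5 of Igfbp5 for the difference of effects (-0.12 to 0.18). Igf1 moved by more than the spread with the mean of its probe sets, to -0.33 in atrium and -0.40 for the difference of effects.

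Counts of calls over all probe sets moved more. For shunt against sham in ventricle the 20 calls (55.0% higher) became 82 with a filter at the 60th percentile, 38 after quantile normalization (42.1% higher), 160 with array weights, 96 with a trended and robust prior, 10 with only the ventricular arrays, and 215 with the hexokinase covariate. Cyclic loess gave 24 (45.8% higher). Leaving out single arrays gave 0 to 118, with 0 without the first or the third ventricular sham array or the third shunt array, and 118 without the third atrial shunt array. In atrium the 243 calls became 910 with array weights, 426 with the trended prior, 43 with only the atrial arrays and 758 with the covariate, and 66 to 469 without single arrays, the highest again without the third atrial shunt array. The difference of effects had 0 calls, 11 with array weights, 1 with the trended prior, 1 with the covariate, and 0 to 19 without single arrays. Leaving out single arrays gave 7340 to 9346 calls between chambers in sham rats (8782 in all) and 6666 to 7957 in shunt rats (7801). The cause of these moves was not tested.

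Of 6 pairs of equal replicate number within an operation, 4 deviated together with a correlation above 0.1, and the range was -0.24 to 0.44. None of the 12 pairs across operations passed 0.1. None of the 12 arrays correlated best with its own number in every other group. That criterion takes in groups of the other operation, which hold other rats, so it cannot decide whether atrium and ventricle were paired. Within sham, each array correlated best with its own number (r = 0.23, 0.26 and 0.07). Within shunt, numbers 2 and 3 gave 0.44 each, but number 1 gave -0.24. Not every pair passed 0.1, so the main fit took no pairing, and whether the chambers were paired was not settled. A replicate block over all groups gave 15 calls in ventricle, 208 in atrium, 8818 and 7825 between chambers and 0 for the difference of effects. A replicate block within operation gave 10 in ventricle and 1 for the difference of effects. Neither changed a call of the 10 genes.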
